A study of Homo sapiens with 32 samples.

Results

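The miRNA precursors mir-187, mir-204, mir-211, mir-216a, mir-216b and mir-217 were followed through wild-type and DGCR8-edited 293T cells. They are 6 of the 1513 miRNA rows of a small RNA count table. The rows mir-187, mir-204 and mir-217 were chosen by their counts, which were lower in DGCR8-edited than in wild-type clones under control shRNAs. The rows mir-211, mir-216a and mir-216b were added as the family or cluster partners of the chosen rows. The genotype difference under control shRNAs is therefore given as a description without a test. 293T cells derive from human embryonic kidney and express the SV40 large T antigen. The wild-type clones were numbered 52, 55, 57 and 67. The edited clones 30, 34, 42 and 43 carry the genotype labelled DGCR8 delta103-126Q and lack, after prime editing, the site in DGCR8 to which the nuclear protein ERH is reported to bind. Each clone received control shRNA_1, control shRNA_2, shERH_1 and shERH_2 on separate vectors, with puromycin selection and a sort for the vector's marker on day 5, which gave 32 libraries. All clones come from 1 cell line, and each genotype is represented by 4 clones. P-values for genotype differences therefore measure the spread between clones. Those for knockdown, which is compared within clones, measure how the change varies from clone to clone.

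DGCR8 binds primary miRNA hairpins and positions the nuclease DROSHA on them, and both form the Microprocessor. ERH is a small protein reported to bind the DGCR8 N-terminus and to aid the processing of some hairpins, in particular hairpins with a neighbour in the same transcript. After cleavage by DICER, 1 arm of the hairpin is loaded into Argonaute and pairs with mRNAs mainly through its seed, bases 2 to 8. The miRNA family of miR-204 and miR-211 is known from the retinal pigment epithelium, melanocytes and kidney. The cluster of miR-216a, miR-216b and miR-217 is known from the exocrine pancreas, and miR-187 from endocrine and immune cells. A bulk library cannot tell fewer cells that contain a miRNA from less of it per cell.

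The mature arms usually taken as the main products show which members could act on shared targets, and the seeds are in capitals (RefSeq, GRCh38.p14; all 6 members matched).
miR-187-3p: uCGUGUCUuguguugcagccgg
miR-204-5p: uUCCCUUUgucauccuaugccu
miR-211-5p: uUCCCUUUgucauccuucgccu
miR-216a-5p: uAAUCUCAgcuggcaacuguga
miR-216b-5p: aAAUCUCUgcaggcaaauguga
miR-217-5p: uACUGCAUcaggaacugauugga
miR-204-5p and miR-211-5p had the same seed and were identical at 20 of 22 positions, differing by A17U and U18C when counted from the 5′ end with the miR-204 base first. miR-216a-5p and miR-216b-5p were identical at 18 of 22 positions and differed by U1A, A8U, U11A and C17A, of which A8U lies in the seed. Each row of the table held both arms of a hairpin, and the aligner is not given in the sources used here. Reads could therefore have been split between mir-204 and mir-211, or between mir-216a and mir-216b, in a way these counts cannot show.

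In GRCh38, 3 members lay in 1 transcript and 3 had a locus of their own. The hairpins of mir-217 (chromosome 2, 55982967 to 55983076), mir-216a (55988950 to 55989059) and mir-216b (56000714 to 56000795) lay on the minus strand in introns of the lincRNA MIR217HG (GENCODE release 29). The gap between mir-217 and mir-216a was 5874 bases and that between mir-216a and mir-216b 11655 bases. The lincRNA AC011306.1 spans the same place on the opposite strand. The hairpin of mir-204 (chromosome 9, 70809975 to 70810084) lay in an intron of TRPM3, and that of mir-211 (chromosome 15, 31065032 to 31065141) in an intron of the related channel gene TRPM1. The hairpin of mir-187 (chromosome 18, 35904818 to 35904926) overlapped no other annotated gene, and its nearest hairpin on the same strand, MIR3929, was 29162 bases away.

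The hairpins of mir-217 and mir-216a are shown because these cluster neighbours are compared most closely; both mature arms are in capitals.
mir-217: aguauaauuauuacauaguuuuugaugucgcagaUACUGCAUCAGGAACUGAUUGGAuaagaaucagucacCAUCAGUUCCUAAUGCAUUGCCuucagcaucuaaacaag
mir-216a: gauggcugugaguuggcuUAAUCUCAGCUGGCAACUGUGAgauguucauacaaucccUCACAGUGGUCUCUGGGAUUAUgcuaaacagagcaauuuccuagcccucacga
The mir-217 hairpin had a GC content of 36.4%, lower than all but 9.7% of 1140 hairpins of rows with a count, and a predicted folding energy of -0.29 kcal/mol per base, weaker than in 96.2% of them. Its total folding energy, -31.6 kcal/mol, was weaker than in 69.4% of them. The annotated hairpin is 110 bases long, longer than 92.9% of them (median 81), and energy per base depends on the annotated length. The mir-216a hairpin had 47.3% GC and -0.37 kcal/mol per base. The mir-187 hairpin was at the other end in base composition, with 65.1% GC. Between the arms, the motif UGU (searched on the hairpin's own strand) was present in mir-216a and mir-216b and in none of the other 4 members, and in 33.8% of 663 hairpins with both arms annotated.

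Libraries held 1318923 to 6222790 miRNA counts and 9139 to 33090 spike-in counts. The counts of the pair of control libraries, and of the pair of ERH libraries, were added up within each clone. Levels are CPM, counts relative to a TMM-scaled library size. Among 8 kidney or epithelial markers, mir-10a and mir-30a were abundant (medians of 30619 and 9014 CPM of all miRNA counts), while mir-200b was close to 0, at a median of 0.70 CPM. The 8 markers of blood, muscle, liver and neurons together took 241 to 3906 CPM. The muscle marker mir-206 was at 0 in 23 of 32 libraries, but mir-142, mir-223, mir-1, mir-133a, mir-122 and mir-124 had counts in every library. The liver marker mir-122 was at a median of 194 CPM. Under control shRNAs it ran from 89.1 CPM in clone 43 to 716 CPM in clone 34. The blood marker mir-142 under control shRNAs was at 1994 CPM in clone 30, 858 CPM in clone 34 and 148 to 347 CPM in the other 6 clones, and its part in the genotype differences was not tested. Clone 30 had the highest mir-187, mir-204 and mir-216a levels of the deletion clones, and without it the log2 genotype difference of mir-187 was -1.87 under control and -2.02 under ERH shRNAs.

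The members spanned more than 2 orders of magnitude in abundance. Over all libraries mir-187 had 28605 counts (rank 130 of 1513), mir-204 2085 (rank 289), mir-216a 1744 (rank 308) and mir-217 747 (rank 380). The rows mir-216b and mir-211 had 125 and 82 counts and were at 0 in 4 and 7 libraries. The rows mir-187, mir-204, mir-216a and mir-217 passed the low-count filter in every comparison, mir-216b in 2 knockdown comparisons and mir-211 in none.

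mir-187, the most abundant member, separated the genotypes in both shRNA arms and moved little with the ERH shRNAs. Under control shRNAs it was at 353, 1119, 689.9 and 402 CPM in wild-type clones 52, 55, 57 and 67, and at 311, 163, 153 and 180.2 CPM in deletion clones 30, 34, 42 and 43. Every deletion clone lay below every wild-type clone, as was the case for 10.3% of 536 rows, with clone 30 close to the lowest wild-type clone. The means were 641 ± 351 and 202 ± 73.6 CPM (SD, n = 4), 3.16-fold lower in deletion clones. This was the lowest log2 fold change of 536 rows in the comparison that chose it, at -1.66 ± 0.37 (SE).

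Under ERH shRNAs, libraries that the choice did not use but from the same clones, mir-187 was at 315, 903, 560.4 and 410.0 CPM in clones 52, 55, 57 and 67. In deletion clones 30, 34, 42 and 43 it was at 295, 156, 118 and 154 CPM. The genotypes again did not overlap, as was the case for 1.93% of 569 rows, counting only rows lower in deletion clones. The log2 difference was -1.61 ± 0.37 (SE), with a 95% interval of -2.41 to -0.82 and an adjusted p of 0.0877 (edgeR quasi-likelihood test, Benjamini-Hochberg over 569 rows). It did not pass the threshold of 0.05. DESeq2 gave -1.70 with an adjusted p of 0.000545, and edgeR without the low-count filter -1.58 with an adjusted p of 0.00351. Over all alternatives the difference lay between -2.02 and -1.33, and the adjusted p between 0.000545 and 0.328. The clones are those whose control sums chose mir-187, mir-204 and mir-217. Intervals and p-values for the genotype differences of these rows under ERH shRNAs are therefore not free of the choice.

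The ERH shRNAs themselves changed mir-187 by -0.18 ± 0.11 on the log2 scale (SE, n = 8 clones, adjusted p = 0.205 by edgeR), with lower values in 7 of 8 clones. The change was -0.14 ± 0.17 in wild-type and -0.21 ± 0.12 in deletion clones (SE). These small values took the opposite sign with spike-in scaling, at 0.27 over all clones. The spread of mir-187 between wild-type clones, an SD of 0.76 on the log2 scale, was larger than that of 88.8% of 367 rows with at least 10 CPM. Clone 55 alone carried 1119 CPM, and without it the control-arm difference between genotypes was -1.28.

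**Figure D1:**
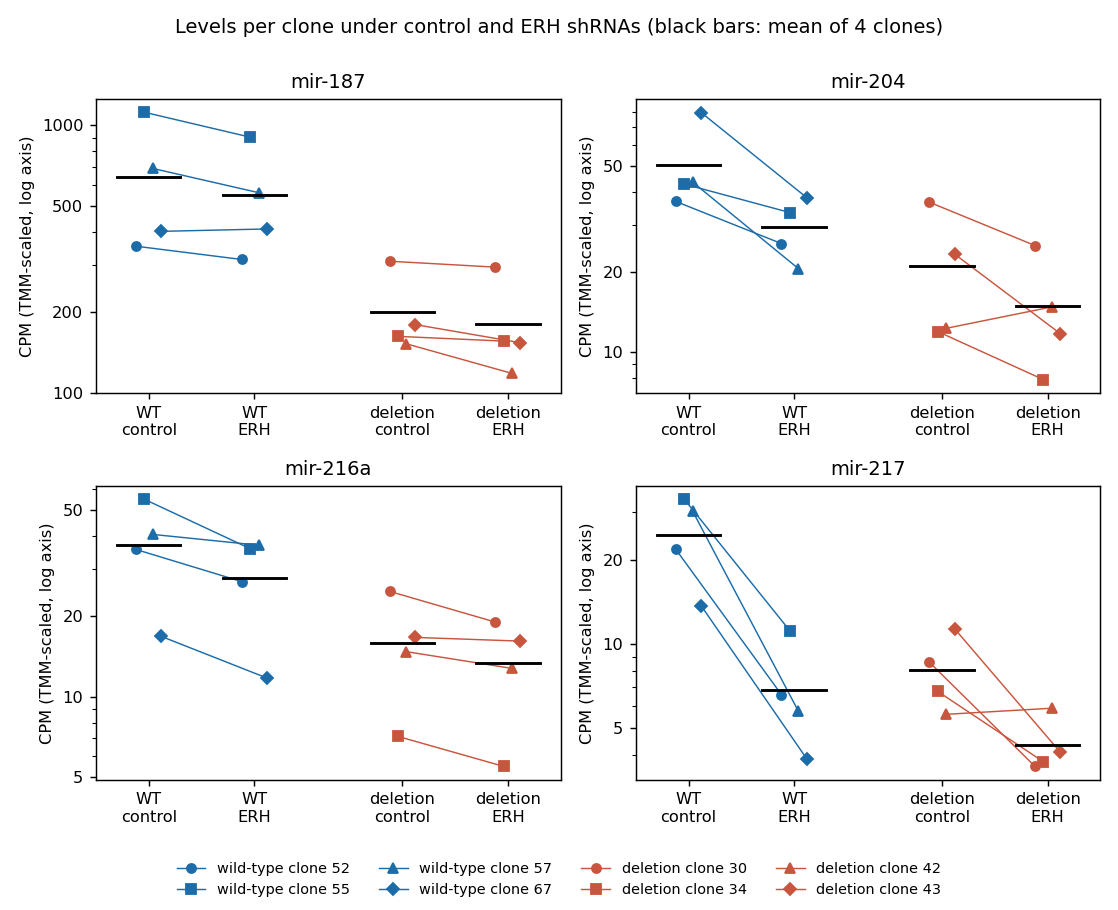
Levels of the 4 well-covered members per clone, in TMM-scaled CPM on a log axis, with lines joining the control and ERH sums of a clone and black bars at the means of 4 clones (WT, wild-type). mir-187 stays between 353 and 1119 CPM in wild-type controls and between 153 and 311 CPM in deletion controls, while mir-217 drops from 24.7 to 6.83 CPM on average in wild-type clones with ERH shRNAs.

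mir-204, an intronic hairpin without a close neighbour, fell with ERH knockdown and was also lower in deletion clones. Under control shRNAs it was at 36.9, 42.9, 43.6 and 79.6 CPM in wild-type clones 52, 55, 57 and 67, and at 36.6, 11.9, 12.3 and 23.4 CPM in deletion clones 30, 34, 42 and 43. The genotypes did not overlap, but wild-type clone 52 and deletion clone 30 differed by less than 1 CPM. All deletion clones lay below all wild-type clones in 10.3% of 536 rows. The means were 50.7 ± 19.5 and 21.1 ± 11.7 CPM (SD, n = 4), a log2 difference of -1.24 ± 0.40 (SE).

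With ERH shRNAs mir-204 was at 25.6, 33.5, 20.6 and 38.1 CPM in wild-type clones 52, 55, 57 and 67, and at 25.2, 7.88, 14.8 and 11.7 CPM in deletion clones 30, 34, 42 and 43. Each wild-type clone and each deletion clone except clone 42 was lower than with control shRNAs. The log2 change over 8 clones was -0.62 ± 0.18 (SE, adjusted p = 0.0083 by edgeR over 667 rows), a 1.54-fold fall. It was -0.71 ± 0.23 in wild-type and -0.51 ± 0.23 in deletion clones (SE). The rule chose mir-187, mir-204 and mir-217 for control sums that were high in wild-type and low in deletion clones, which favours a fall from control to ERH shRNAs in wild-type clones and a rise in deletion clones. Knockdown changes of these rows within a genotype are therefore given as a description without a test. The fit over all clones has the same control sums as its baseline, and its p-values for these rows are not free of that choice.

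The mir-204 call depended on the scaling. The median log2 change of all rows was 0.06 with TMM, 0.33 with total miRNA scaling and 0.52 with spike-in scaling. Under these the mir-204 change over all clones was -0.34 (adjusted p = 0.144 by edgeR) and -0.16 (adjusted p = 0.582 by edgeR), still below the median row but not past the threshold. Without the clone block it was -0.65 (adjusted p = 0.107 by edgeR). With shRNA 1 alone the adjusted p was 0.0586 and with shRNA 2 alone 0.0939.

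Between genotypes under ERH shRNAs, mir-204 differed by -1.0 ± 0.37 (SE, 95% interval -1.81 to -0.19, adjusted p = 0.281 by edgeR), and the clones overlapped through clone 30. Its family partner mir-211 was near the detection limit, with 19 counts in 8 wild-type control libraries (1.07 CPM of all miRNA counts, 95% Poisson interval 0.64 to 1.67) and 15 in 8 deletion control libraries (0.75 CPM, 0.42 to 1.23). With ERH shRNAs it had 38 counts (1.72 CPM, 1.21 to 2.35) and 10 counts (0.56 CPM, 0.27 to 1.04). Of the 38 wild-type counts, 26 came from clone 57, whose second ERH library was the deepest of all. The control sum of clone 42 had 0 counts, which allows up to 0.73 CPM. These intervals cover counting error only. They overlapped between genotypes under control shRNAs and did not overlap under ERH shRNAs, where most wild-type counts came from 1 clone. The row did not pass the low-count filter, so that mir-211 was not tested over clones.

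**Figure D2:**
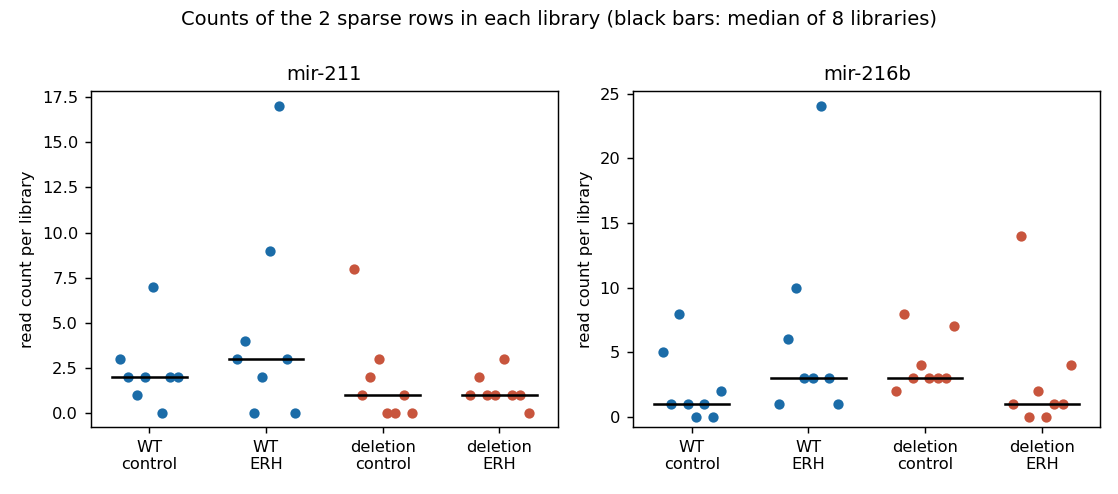
Read counts of mir-211 and mir-216b in each of the 32 libraries by genotype (WT, wild-type) and shRNA arm, with black bars at the median of 8 libraries. Nearly all libraries hold fewer than 10 counts, and the highest points, 17 for mir-211 and 24 for mir-216b, are both the second ERH library of wild-type clone 57.

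mir-217, the most 3′ hairpin in MIR217HG, fell further with ERH knockdown than any other member tested. Under control shRNAs it was at 21.9, 33.2, 30.0 and 13.7 CPM in wild-type clones 52, 55, 57 and 67, and at 6.57, 11.2, 5.73 and 3.86 CPM with ERH shRNAs. The ERH sums of all 4 clones lay below all 4 control sums. High control sums in wild-type clones were part of the choice, and the share of all rows separated in this way was not computed. In deletion clones 30, 34, 42 and 43 the control values were 8.61, 6.75, 5.59 and 11.3 CPM and the ERH values 3.63, 3.77, 5.88 and 4.08 CPM. Only clone 42 was not lower with ERH shRNAs.

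Over 8 clones mir-217 fell 2.66-fold, with a log2 change of -1.41 ± 0.25 (SE, adjusted p = 0.000145 by edgeR), lower in 7 of 8 clones. This was the 12th lowest change of 667 rows, of which 36.6% were called, 20.1% higher (134 rows) and 16.5% lower (110). That split was 233 higher and 22 lower with spike-in scaling, and 210 and 36 with total miRNA scaling. The call held in all 17 alternatives that gave a value, with log2 changes between -1.62 and -0.94 and adjusted p-values between 2.22e-07 and 0.0142. The smallest of these changes, -0.94, came from spike-in scaling. Each of these fits has control counts that chose mir-217 as its baseline, so that its p-value is not free of that choice. The shRNAs gave similar values when taken singly, -1.37 for shERH_1 against control shRNA_1 and -1.34 for shERH_2 against control shRNA_2. Control shRNA_2 against control shRNA_1, the background, differed by 0.13 ± 0.24 (SE, adjusted p = 0.913 by edgeR).

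The knockdown change of mir-217 was -1.83 ± 0.29 in wild-type and -0.91 ± 0.34 in deletion clones (SE), as a description. Neither these values nor their difference was tested, because the control sums of both genotypes chose the row. Under ERH shRNAs the genotypes overlapped, at 6.83 ± 3.10 and 4.34 ± 1.04 CPM (SD, n = 4), a log2 difference of -0.65 ± 0.39 (SE, 95% interval -1.50 to 0.20, adjusted p = 0.463 by edgeR). Under control shRNAs, which chose it, the means were 24.7 ± 8.74 and 8.07 ± 2.51 CPM (SD, n = 4), 3.00-fold lower in deletion clones. In order of level, wild-type controls stood above the other 3 groups without overlap, and those 3 overlapped with each other. The choice of mir-217 favoured this place of the wild-type controls.

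mir-216a, the neighbour of mir-217, had lower mean levels in deletion clones in both shRNA arms, with clones that overlapped between genotypes, and its change with ERH shRNAs did not pass the threshold. Its genotype difference was 2.33-fold under control shRNAs, against 3.00-fold for mir-217, and 2.10-fold under ERH shRNAs, against 1.57-fold. Under control shRNAs it was at 35.6, 54.9, 40.6 and 16.8 CPM in wild-type clones 52, 55, 57 and 67, and at 24.8, 7.10, 14.7 and 16.7 CPM in deletion clones 30, 34, 42 and 43. The genotypes overlapped through wild-type clone 67 and deletion clone 30. Of the rows on either side of the choice, mir-216a had a log2 difference of -1.22 ± 0.43 (SE) and was not chosen by its counts, while mir-204, at -1.24 ± 0.40 (SE), was.

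With ERH shRNAs mir-216a was at 27.0, 35.9, 37.0 and 11.7 CPM in the wild-type clones and at 19.0, 5.48, 12.8 and 16.2 CPM in the deletion clones, in the same order. All 8 clones had lower values than with control shRNAs, as had 9.6% of rows, but the log2 change of -0.33 ± 0.16 (SE, adjusted p = 0.115 by edgeR) did not pass the threshold. It passed with DESeq2 (-0.40, adjusted p = 0.0351) and after GC correction with the clone block (-0.44, adjusted p = 0.0315), and took the opposite sign with spike-in scaling (0.12). The shRNAs differed: shERH_1 gave -0.06 and shERH_2 -0.64 over all clones, and 0.09 and -1.12 in wild-type clones. Between genotypes under ERH shRNAs mir-216a differed by -1.07 ± 0.43 (SE, 95% interval -2.02 to -0.13, adjusted p = 0.289 by edgeR), with overlapping clones.

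The ratio of mir-217 to mir-216a compares hairpins of 1 transcript and needs no scaling. Its log2 value under control shRNAs was -0.70, -0.72, -0.43 and -0.29 in wild-type clones 52, 55, 57 and 67, and -2.02, -1.67, -2.68 and -1.58 with ERH shRNAs. The wild-type ratios with and without knockdown did not overlap. High mir-217 control counts in wild-type clones were part of the choice, and the share of other ratios separated in this way was not computed. In deletion clones 30, 34, 42 and 43 it was -1.52, -0.07, -1.38 and -0.55 under control shRNAs and -2.36, -0.53, -1.11 and -1.96 with ERH shRNAs. The change over 8 clones was -1.03 ± 0.74 (SD), with lower ratios in 7 of the 8. An exact two-sided test over all sign flips gave p = 0.0156, and 0.0938 after adjustment over 6 ratio tests. It did not pass after adjustment, and its baseline holds the control counts by which mir-217 was chosen. By genotype the change was -1.45 ± 0.55 in wild-type and -0.61 ± 0.71 in deletion clones (SD, n = 4). With shERH_1 alone it was -1.25 and with shERH_2 alone -0.64.

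mir-216b, the third hairpin of the cluster, gave 18 counts in wild-type and 33 in deletion control libraries (1.01 CPM, 95% Poisson interval 0.6 to 1.6, and 1.65 CPM, 1.13 to 2.31). With ERH shRNAs it gave 51 and 23 counts (2.30 CPM, 1.71 to 3.03, and 1.30 CPM, 0.82 to 1.94). Of the 51 counts, 27 came from wild-type clone 57, and of the 23 counts, 15 came from deletion clone 30. These intervals cover counting error only, not the spread between clones. The control-arm intervals of the genotypes overlapped, with the higher value in deletion clones and only 1 to 10 counts per clone. Its knockdown change over all clones was 0.03 ± 0.57 (SE, adjusted p = 0.970 by edgeR), and its sign turned in 5 of 14 alternatives. By clone, mir-216b was lower with ERH shRNAs in 0 wild-type clones and in 3 deletion clones, on sums of 1 to 27 counts. The share of all rows with this pattern was not computed, and the difference between genotypes was not tested. In wild-type clones the change was 0.89 ± 0.72 (SE, adjusted p = 0.359 by edgeR), and in deletion clones the row did not pass the low-count filter. The log2 ratio of mir-216b to mir-216a changed by 0.24 ± 1.53 (SD, n = 8, exact sign-flip permutation p = 0.664, adjusted p = 0.857) and that of mir-204 to mir-211 by -0.56 ± 1.16 (SD, n = 8, exact sign-flip permutation p = 0.219, adjusted p = 0.656). By genotype the mir-216b to mir-216a change was 1.24 ± 1.01 in wild-type and -0.75 ± 1.35 in deletion clones (SD, n = 4), which was not tested. Under ERH shRNAs no ratio differed between genotypes past the threshold, with differences of 0.50, -0.24 and 0.14 for the 3 ratios in the order given (exact permutation, adjusted p = 0.686, 0.857 and 0.886). With 4 clones against 4, the smallest p this test can give is 0.0286.

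**Figure D3:**
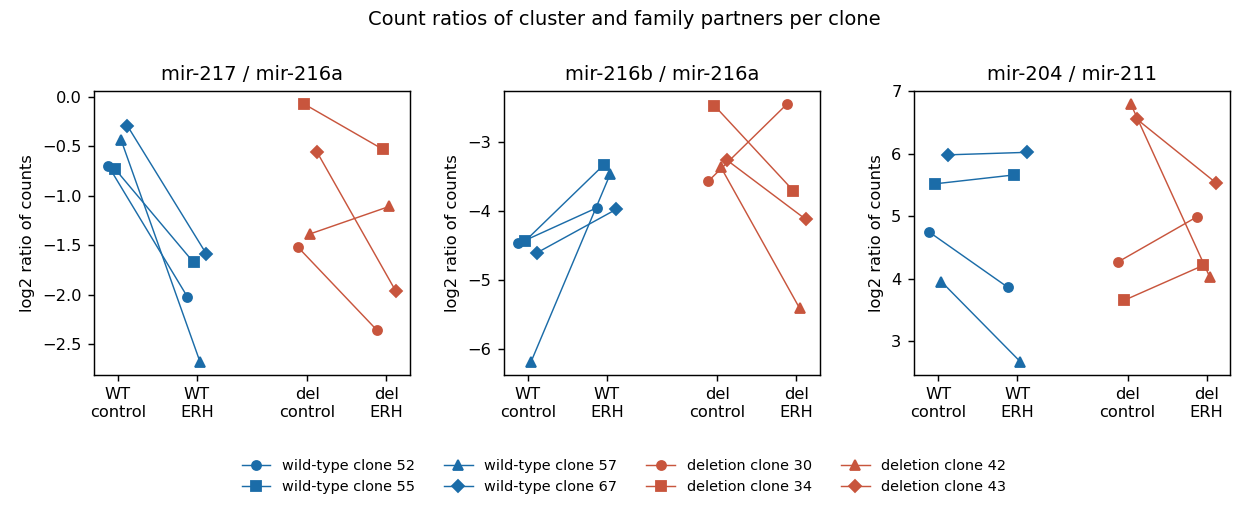
Log2 ratios of summed counts (pseudocount 0.5) for mir-217 to mir-216a, mir-216b to mir-216a and mir-204 to mir-211, with lines joining the control and ERH values of a clone (WT, wild-type; del, deletion). The mir-217 to mir-216a ratio is lower with ERH shRNAs in 7 of 8 clones, while the ratios that hold a sparse row scatter in both directions.

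Over all clones, ERH knockdown passed the threshold for mir-217 and mir-204, both lower, of the 5 members tested. Of all 667 rows 36.6% were called and 16.5% were called lower. The 5 members are too few for their count to be set against these shares, and nothing is read from it. In wild-type clones 31.3% of 613 rows were called, 20.9% higher and 10.4% lower (128 and 64 rows, against 170 and 11 with spike-in scaling). In deletion clones 10.3% of 633 rows were called, 4.27% higher and 6% lower (27 and 38 rows, against 85 and 17 with spike-in scaling). Nothing is read from these shares for the members chosen by their control counts, and mir-216a did not pass in either genotype. After GC correction with the clone block mir-216a passed in wild-type clones (-0.57, adjusted p = 0.0475 by edgeR). Control shRNA_2 against control shRNA_1 called 0 of 571 rows (edgeR), with 48 at an unadjusted p under 0.05. With the deletion under control shRNAs edgeR called 25.9% of 536 rows, 18.8% higher and 7.09% lower (101 and 38 rows, against 134 and 0 with spike-in scaling), and 10.3% had all deletion clones below all wild-type clones. The rows mir-187, mir-204 and mir-217 are among the latter, which their choice favoured, and no call is given for them in this comparison. Under ERH shRNAs edgeR called 0% of 569 rows, with 87 at an unadjusted p under 0.05, while DESeq2 called 11. The members had log2 differences there between -1.61 and -0.65 at a median row of 0.04.

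**Figure D4:**
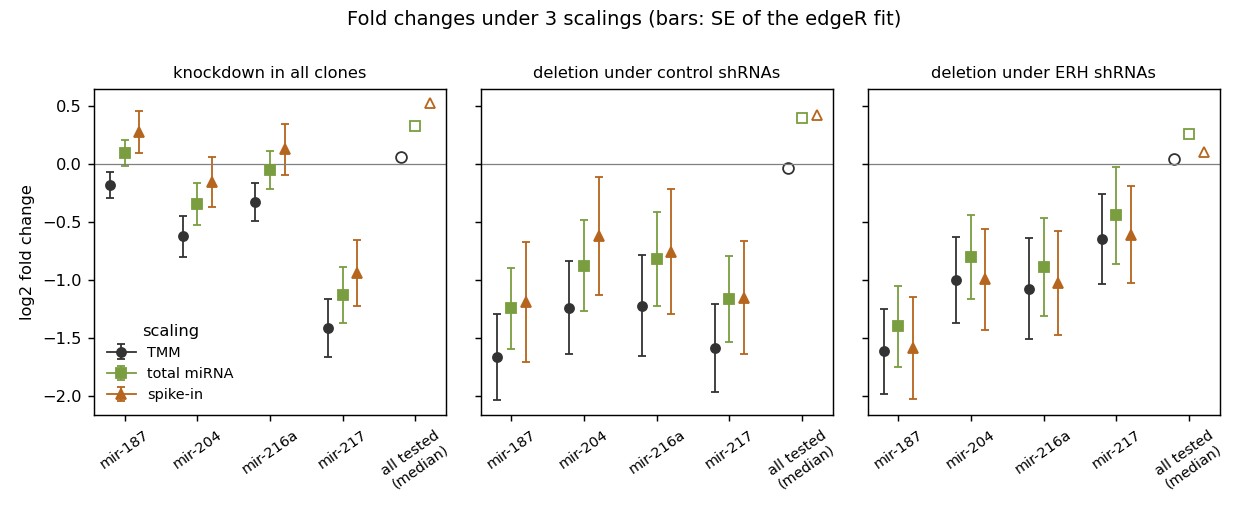
Log2 fold changes of 4 members with ERH knockdown and with the deletion in either shRNA arm, under TMM, total miRNA and spike-in scaling, with bars for the SE and open symbols for the median of all tested rows. The knockdown change of mir-187 and mir-216a crosses 0 between scalings, that of mir-217 stays at -0.94 or below, and the genotype differences of all 4 stay below 0.

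Lists of other miRNAs put these changes beside hairpins with similar tissue or gene structure. The lists were drawn up with earlier results of these data known, so that their counts are a description only. Of 20 tested hairpins that lie alone, as mir-187 and mir-204 do, 5 fell with ERH knockdown and 0 rose, at a median of -0.16, beside 16.5% lower, 20.1% higher and a median of 0.06 over all 667 rows. This count of lower rows is near the background. The strongest was mir-210, a hypoxia-induced miRNA, at -0.56 ± 0.11 (SE, adjusted p = 0.000504 by edgeR). Of 24 hairpins of small clusters, as mir-216a and mir-217 are, 18 fell and 0 rose, at a median of -0.39, led by mir-212 at -2.01 ± 0.21 (SE, adjusted p = 7.07e-08 by edgeR). Of 8 pancreas-associated miRNAs 1 rose, mir-7 at 0.75 ± 0.20 (SE, adjusted p = 0.00537 by edgeR), and 3 fell, led by mir-429 at -1.92 ± 0.73 (SE, adjusted p = 0.0434 by edgeR). Of 6 eye-associated miRNAs 2 fell, led by mir-96 at -0.29 ± 0.11 (SE, adjusted p = 0.0361 by edgeR). Of 12 listed hairpins that bypass the Microprocessor 4 were tested and 0 passed, at a median of 0.17.

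These list counts depended on the scaling. With spike-in scaling the small clusters gave 8 lower and 1 higher at a median of 0.06, the solitary hairpins 0 lower and 2 higher at 0.30, the pancreas list 0 lower and 2 higher, and the eye list 0 in either direction. Of the 4 tested hairpins that bypass the Microprocessor, 3 were higher with total miRNA scaling (median 0.44) and 4 with spike-in scaling (median 0.63). mir-212 and mir-7 kept their calls at -1.53 and 1.19, whereas mir-210 at -0.11 and mir-429 at -1.40 did not pass and mir-96 turned to 0.17. Of 8 kidney or epithelial markers 6 fell with TMM scaling, led by mir-192 at -1.95 ± 0.12 (SE, adjusted p = 5.16e-12 by edgeR), and of 7 tested markers of other cell types 3 fell, led by mir-122 at -0.91 ± 0.25 (SE, adjusted p = 0.00729 by edgeR). The part of these markers in the member changes was not tested. With spike-in scaling 1 kidney or epithelial marker fell and 1 rose, and 0 of the other markers passed. Under the deletion with ERH shRNAs 0 members of any list passed.

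Over the 16 clone sums, Pearson's r between the log2 levels of members was between 0.62 (mir-187 and mir-217) and 0.79 (mir-187 and mir-216a). For the cluster neighbours mir-216a and mir-217 r was 0.68, and for the unlinked pair mir-187 and mir-204 it was 0.73. Among 366 other rows with at least 10 CPM, the pattern of mir-187 was most like that of mir-146a (r = 0.90), mir-126 (0.85) and mir-20b (0.83). That of mir-204 was most like mir-345 (0.85), let-7e (0.84) and mir-26a (0.83). mir-216a was closest to mir-18a (0.86), mir-20a (0.86) and mir-20b (0.85), and mir-217 to mir-23a (0.86), mir-449c (0.84) and mir-99a (0.83). These values describe 16 points that share clones, libraries' depth and scaling, and are given without a test. The points include the control sums by which mir-187, mir-204 and mir-217 were chosen as lower in deletion clones, so that a positive r between members was favoured by the choice. On counts relative to spike-in, 6 of these 12 neighbours remained, among them all 3 of mir-187.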

How the data were processed

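Small RNA was measured in 32 libraries of 8 clones. Per the labels' protocols, total RNA (400 ng) received 4 reference small RNAs, and QIAseq miRNA libraries were made from 100 ng. The deposited values are read counts per miRNA precursor, per the file headers, with no normalization by the authors. SAMtools is named in the submitters' processing notes; aligner, annotation, build and use of molecular identifiers are not given in the sources used here. If identifiers were not used, counting error exceeds what the counts imply.

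Counts were added over the pair of shRNAs of an arm, giving 16 sums. edgeR 4.0.16 (R 4.3.3) provided quasi-likelihood tests after filterByExpr and TMM scaling, with Benjamini-Hochberg adjustment over all rows tested and a threshold of 0.05. The knockdown model held a term for each clone, since the labels give every clone all 4 vectors; deviations from group means correlated between the arms with r of 0.33 to 0.59 in the 8 clones. Genotypes were compared as 4 against 4 clones within an arm. The SE is the log2 fold change divided by the square root of F. Log2 CPM used a prior count of 2 and ratios a pseudocount of 0.5. Ratios were tested by exact permutation over 256 sign flips or 70 arrangements. Scripts were tested on simulated data.

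Members and lists were chosen with earlier results of these data known. Named rows are the members, for each of 4 members the 3 rows with the highest Pearson r, and per list the called row with the largest change in each direction. Alternatives were DESeq2 1.42.0, spike-in or total miRNA scaling, GC correction, other filters, single libraries or shRNAs, no clone block, a ratio pseudocount of 2, and leaving out each clone. Hairpin GC came from RefSeq (81.9% of rows matched), and folding energies from RNAfold 2.7.2. The edit in DGCR8 and ERH mRNA were not analysed here.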

Additional observations from a re-analysis of the deposited data

How the results depend on the processing

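Read depth limited mir-211 and mir-216b, whose values rest on few counts per clone. Knockdown in all clones called 244 rows, against 148 with a mean of at least 100 counts, 117 with shRNA 2 alone and 113 without the replicate block, and 159 (without clone 55) to 230 with a clone left out. In wild-type clones it called 192, against 124, 20 and 74 in the same order, and 112 (without clone 57) to 197; without clone 55 it called 126. In deletion clones it called 65, against 102 with spike-in scaling, 109 with total miRNA scaling, 104 with each library its own sample, 19 with shRNA 2 alone and 13 without the replicate block, and 30 (without clone 30) to 119 (without clone 34); without clone 42 it called 38. The deletion under control shRNAs called 139, against 76 with a mean of at least 100 counts, 223 with each library its own sample and 35 with shRNA 2 alone, and 83 (without clone 34) to 129 (without clone 30). Total miRNA scaling split these calls into 154 higher and 4 lower, and GC correction into 74 and 65. Under ERH shRNAs it called 0, against 11 with DESeq2, 1 without a filter, 55 with each library its own sample, and 0 to 1 (without clone 43). Without the replicate block the mir-217 knockdown change kept its call in all clones, and that of mir-204 lost it.

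Signs turned for small or sparse values. The mir-187 knockdown change was 0.27 (spike-in) and 0.091 (total miRNA scaling) in all clones, 0.47 and 0.20 in wild-type clones, and 0.079 (spike-in) in deletion clones. That of mir-216a was 0.12, 0.24 and 0.0035 with spike-in scaling in all, wild-type and deletion clones, and 0.086 with shRNA 1 in wild-type clones. That of mir-216b was -0.085 with DESeq2 and ran from -0.33 (without clone 57) to 0.27 (without clone 42). The change of the mir-216b to mir-216a ratio was -0.79 with shRNA 1, and -0.11 (without clone 57) to 0.57 with a clone left out. Its genotype difference was 0.054 with a pseudocount of 2, 0.10 with shRNA 2, and -0.73 (without clone 30) to 0.25 (without clone 42). The genotype difference of mir-204 to mir-211 was -0.12 with a pseudocount of 2, -0.74 with shRNA 1, and -0.49 (without clone 57) to 0.62 (without clone 67), and that of mir-217 to mir-216a was -0.077 with shRNA 2. Of 12 most alike rows, 6 remained with spike-in counts as the scale. The cause of these shifts was not tested. Among the alternative values for single members, 302 kept their direction and, where tested, their side of the threshold, 12 lost the call, 7 gained one and 14 turned their sign.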
